A study of Drosophila melanogaster with 6 samples.

Results

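The genes described here are 10 components of the Drosophila microRNA and siRNA machinery, chosen by name among the 17559 genes counted. The microRNA components are drosha, pasha, Dcr-1, loqs, AGO1, gw and nbr, and the siRNA components are Dcr-2, r2d2 and AGO2. The question was whether an excess of a single microRNA in the testis goes with a change in the transcripts of this machinery. RNA was sequenced from adult testes of males aged 3 to 5 days, in 3 samples of miR-2b-1 overexpression (actin5C-Gal4>UAS-miR-2b-1) and 3 controls (actin5C-Gal4>w1118). Both groups came from crosses made at 28 °C and carried the same driver, in which the broadly active Act5C promoter expresses the yeast activator GAL4. The transgene was in a UASp vector, a form of the GAL4-responsive promoter built for the female germline, and how much of it each testis cell type expressed was not measured. Each sample was a pool of testes. The labels give w1118 as the other parent of the control, while the study's data description names OreR. Parental strain and transgene therefore differ between the same groups and cannot be told apart.

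MicroRNAs are cut from long nuclear transcripts by Drosha with its partner Pasha, exported, and cut again in the cytoplasm by Dicer-1 with its partner Loquacious. The resulting duplex is loaded mainly into Argonaute 1, which recruits GW182 (the product of gw) to repress and degrade target messages. The siRNA branch runs in parallel, with Dicer-2, R2D2 and Argonaute 2 acting on long double-stranded RNA from viruses, transposons and genomic hairpins. Endogenous siRNAs made from hairpin transcripts are needed for male fertility in Drosophila.

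The 6 libraries held between 18047619 and 27789620 counts on genes, with 21202512 or more in each overexpression library and 20282355 or fewer in each control. The transgene could not be checked from these data: mir-2b-1 had 0 counts in all 6 libraries. Mature microRNAs are as a rule lost from libraries of long RNA. No longer transcript was counted on mir-2b-1 either, and the reason was not tested. Genes of the accessory gland and ejaculatory duct, organs next to the testis, summed to 435, 1160 and 10308 CPM (counts per 1000000 counts of a library, scaled by the TMM method) in overexpression libraries 1, 2 and 3, and to 8754, 202 and 5843 CPM in control libraries 1, 2 and 3. Overexpression library 3 and control libraries 1 and 3 were thus rich in these transcripts, and the groups overlapped. The tissue label was checked against its markers, and all 7 spermatocyte and 11 spermatid markers were detected, those of spermatids summing to 11717 to 14020 CPM under overexpression and 13880 to 15826 CPM in the control. Of 9 markers of the muscle sheath 4 were called lower under overexpression (edgeR adjusted p under 0.05), against 1.51% of all genes tested. The 9 markers summed to 199.7 to 215.8 CPM under overexpression against 279.5 to 521.6 CPM in the control, with no overlap. In RNA from a whole organ, fewer cells of a type and less RNA per cell cannot be told apart. The part of these differences in the results below was not tested beyond the values given with them.

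Transcripts of the microRNA Dicer were more abundant under miR-2b-1 overexpression, by a factor of about 2.08, while 9 of the 10 genes did not pass the test. Dcr-1 (FBgn0039016, chromosome 3R, 22734007 to 22741091, BDGP6) had 17.7, 14.1 and 14.2 CPM in overexpression libraries 1, 2 and 3, against 9.28, 6.63 and 6.19 CPM in control libraries 1, 2 and 3. Every overexpression library lay above every control library, with 310 to 459 counts against 106 to 169. The log2 fold change was 1.06 (standard error 0.198, 95% interval 0.64 to 1.47, adjusted p = 0.00511 over all genes, by the quasi-likelihood test of edgeR), so the rise was larger than the spread between replicates. No exon of an annotated gene overlaps Dcr-1, which has 1 annotated transcript. Over all genes tested, 2.81% passed an adjusted p under 0.05, with 1.29% higher and 1.51% lower under overexpression. With 1 of 10 members called, the count stands on this single gene, which was already known to be called when the members were chosen. Leaving out control replicate 2 gave Dcr-1 an adjusted p of 0.0593 and leaving out overexpression replicate 1 gave 0.0530, so these 2 libraries each decided the call, whereas its log2 fold change stayed between 0.94 and 1.26 when any single library was left out.

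**Figure D1:**
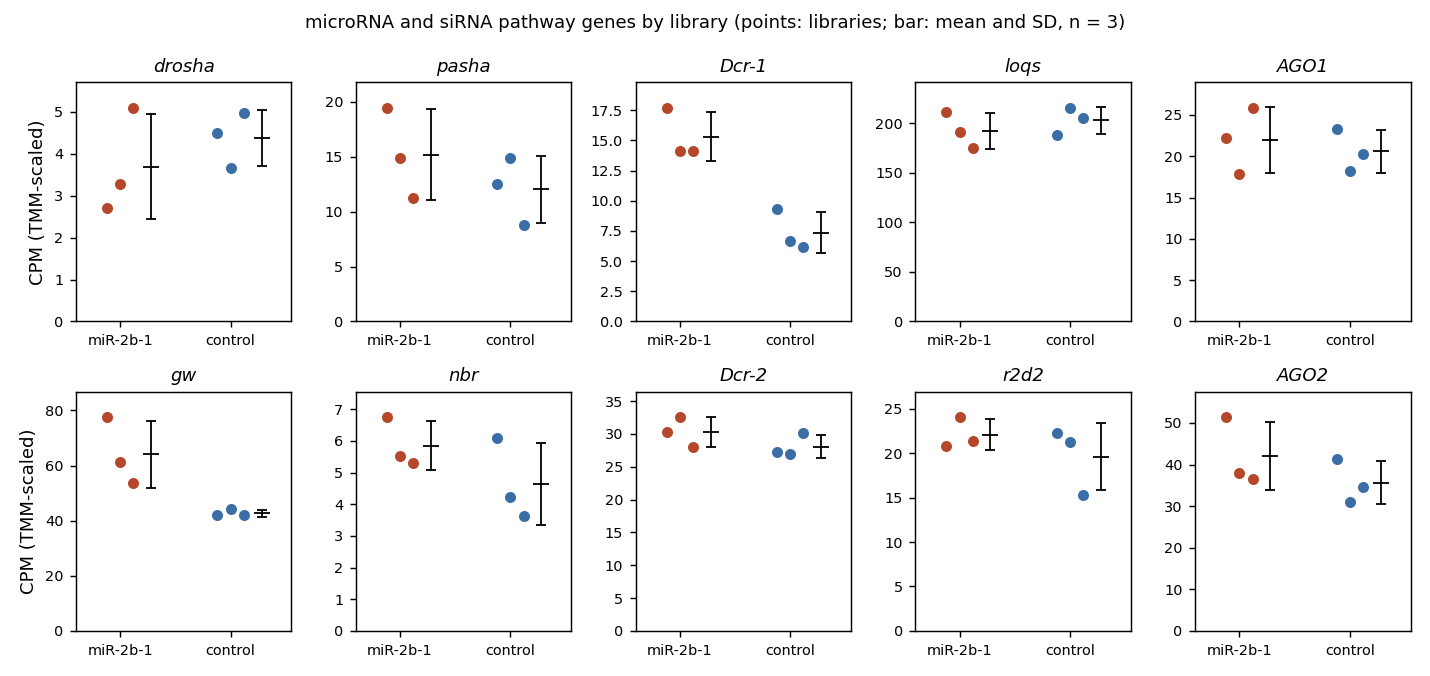
TMM-scaled CPM (vertical axes, from 0) of the 10 genes in each of the 3 miR-2b-1 overexpression libraries and the 3 controls, as points, with the mean and SD of each group beside them. The groups are apart for Dcr-1 (14.1 to 17.7 against 6.19 to 9.28 CPM) and gw (53.7 to 77.5 against 42.0 to 44.2 CPM) and overlap for the other 8 genes.

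The transcript of gw, which encodes the effector that links Argonaute 1 to mRNA decay, was the nearest to the threshold among the other members. It lies on chromosome 4 (FBgn0051992, 649041 to 660608) and had 77.5, 61.2 and 53.7 CPM under overexpression, against 42.1, 44.2 and 42.0 CPM in the control. The groups did not overlap, and the overexpression libraries were spread far more widely (SD 12.1 CPM) than the controls (SD 1.24 CPM). The log2 fold change was 0.59 (standard error 0.157, 95% interval 0.25 to 0.92), with an edgeR adjusted p of 0.0570 and an unadjusted p of 0.00171. The adjusted p was 0.0202 with DESeq2 and 0.0305 in an edgeR fit of the raw counts without scaling factors. It was 0.0325 with accessory gland level as a covariate and 0.00748 without overexpression replicate 3 (both edgeR). In the other 13 fits it was from 0.0517 to 0.296. Dcr-1 and gw were the 2 members whose groups did not overlap, both higher. Among the 12441 genes that passed a filter on low counts, as all 10 members did, 14.3% were higher and 11.1% lower without overlap. Over all 17559 genes, 14.7% had an unadjusted p under 0.05, as these 2 members did.

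Neither member of the nuclear step was called. Drosha, the RNase III enzyme of the nucleus, is encoded on chromosome 2R (FBgn0026722) and was the rarest member. It had 2.698, 3.28 and 5.09 CPM under overexpression and 4.50, 3.65 and 4.97 CPM in the control, resting on 70 to 146 counts per library. Its groups overlapped, with a log2 fold change of -0.24 (95% interval -0.82 to 0.34, edgeR adjusted p = 0.802). Pasha, the double-stranded RNA binding partner of Drosha (FBgn0039861, chromosome 3R), had 11.2 to 19.4 CPM under overexpression and 8.77 to 14.9 CPM in the control, with a log2 fold change of 0.33 (95% interval -0.17 to 0.84, edgeR adjusted p = 0.597). Both intervals are wide, and a moderate difference in either gene was not detectable with 3 samples a group. The exons of pasha share 82 bases with kek6 on the same strand. Over the 6 libraries drosha and pasha ran in opposite directions (Pearson r = -0.93 of log2 CPM, given as a description over 6 libraries that share depth and tissue makeup).

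The partner and the Argonaute of Dicer-1 did not move with it. Loquacious, whose protein forms serve both Dicers, is encoded by loqs (FBgn0032515, chromosome 2L), which had 211, 192 and 175 CPM under overexpression and 188, 216 and 205 CPM in the control. With 3423 to 5484 counts per library this was the best measured member, and its log2 fold change was -0.08 (95% interval -0.36 to 0.21, edgeR adjusted p = 0.934), which leaves out a rise of the size fitted for Dcr-1. It was 0.038 without scaling factors, so the sign of so small a value depends on the scaling. AGO1 (FBgn0262739, chromosome 2R) had 22.2, 17.8 and 25.8 CPM under overexpression and 23.3, 18.2 and 20.2 CPM in the control, with overlapping groups and a log2 fold change of 0.09 (95% interval -0.28 to 0.47, edgeR adjusted p = 0.952). Without overexpression replicate 3 that of AGO1 was -0.041. The exons of loqs share 420 bases with asRNA:CR44599 and those of AGO1 share 196 with CG33155, both on the opposite strand. The 3′ exonuclease gene nbr, whose product trims microRNAs held in Argonaute 1, had 5.30 to 6.75 CPM under overexpression and 3.62 to 6.10 CPM in the control, with a log2 fold change of 0.33 (95% interval -0.18 to 0.85, edgeR adjusted p = 0.617). The exons of nbr share 268 bases with those of Pld3 on the opposite strand, and the strand setting of the counting is not given in the sources used here. Pld3 was more abundant than nbr, at 32.9 to 45.4 CPM under overexpression and 28.8 to 33.4 CPM in the control. Its groups overlapped (log2 fold change 0.33, edgeR adjusted p = 0.368).

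None of the 3 siRNA genes passed the test, with 0 called by edgeR, 0 by DESeq2 and 0 at an unadjusted p under 0.05. Dcr-2 (FBgn0034246, chromosome 2R), the Dicer that cuts long double-stranded RNA, had 30.2, 32.5 and 28.0 CPM under overexpression and 27.2, 26.9 and 30.1 CPM in the control. Its groups overlapped and its log2 fold change was 0.11 (standard error 0.154, 95% interval -0.22 to 0.43, edgeR adjusted p = 0.874). R2D2, the partner that helps Dicer-2 load Argonaute 2, is encoded by r2d2 (FBgn0031951, chromosome 2L), with 20.8 to 24.1 CPM under overexpression against 15.3 to 22.3 CPM in the control, and a log2 fold change of 0.17 (95% interval -0.20 to 0.54). Its exons share 431 bases with Cdc14 on the opposite strand, which had 454 to 599 CPM under overexpression and 409 to 592 CPM in the control, so the r2d2 counts are uncertain where the genes overlap. AGO2 (FBgn0087035, chromosome 3L), the slicing Argonaute of the siRNA branch, had 51.3, 38.0 and 36.5 CPM under overexpression and 41.4, 31.0 and 34.5 CPM in the control. The groups overlapped, with a log2 fold change of 0.24 (95% interval -0.13 to 0.60, edgeR adjusted p = 0.618), and 317 bases of its exons are shared with CG7739 on the opposite strand.

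**Figure D2:**
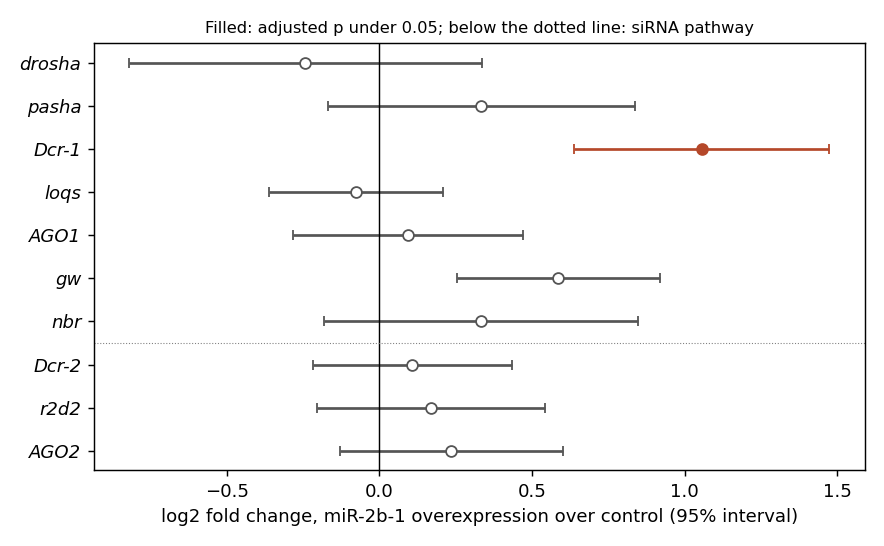
Log2 fold change (horizontal axis, miR-2b-1 overexpression over control) of each gene with its 95% interval from edgeR's fit to 3 samples a group, microRNA genes above the dotted line and siRNA genes below. The interval lies above 0 for Dcr-1 (0.64 to 1.47) and gw (0.25 to 0.92) and spans 0 for the other 8, and Dcr-1 alone has an adjusted p under 0.05.

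Of the 10 members, 8 had a positive log2 fold change, and the median was 0.20. Among genes that passed the filter, 51.6% were positive and the median was 0.01. The members are not independent measures, since they come from the same 6 libraries. The libraries poor and rich in accessory gland transcripts were also read apart, as a description. Between the poor libraries (overexpression 1 and 2 and control 2), the log2 difference of mean CPM was 1.26 for Dcr-1 and 0.65 for gw, and between the rich ones (overexpression 3 and controls 1 and 3) it was 0.87 for Dcr-1 and 0.36 for gw. The log2 difference of AGO2 was 0.53 between the poor libraries and -0.05 between the rich, and that of nbr was 0.54 and 0.13. Each side holds a group with a single library. In an edgeR fit of the poor libraries alone, the log2 fold change was 1.26 for Dcr-1 and 0.65 for gw. There the spread comes from the 2 overexpression libraries, and the lone control is assumed to vary like them. The rich libraries were not fitted.

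Markers of germline stages and of the somatic support cells of the testis were read in the same libraries. Markers of germline stem cells and spermatogonia (nos, bam, bgcn, stwl and piwi) summed to 119.1, 93.3 and 81.3 CPM under overexpression and 83.7, 92.9 and 80.8 CPM in the control. The sums overlapped, and overexpression library 1, which was the highest for Dcr-1 and gw, was also the highest for this list and for hub and cyst cell markers. The log2 fold change was above 0 for all 5 genes (median 0.66), and 2 of them were higher without overlap. Of the 5 genes, 0 were called by edgeR, 1 was by DESeq2 and 3 had an unadjusted p under 0.05, all higher. Hub and cyst cell markers summed to 221 to 270.2 CPM under overexpression against 197.9 to 228.1 CPM in the control. Of these 8 markers 7 had a positive log2 fold change (median 0.31), and 2 were higher without overlap. None of the 8 was called by edgeR or DESeq2, and 2 had an unadjusted edgeR p under 0.05, both higher. Of the 11 spermatid markers 1 had a positive log2 fold change (median -0.18), and 2 were lower without overlap. None of the 11 was called by edgeR or DESeq2, and 3 had an unadjusted edgeR p under 0.05, all lower. Of the 7 spermatocyte markers 4 had a positive log2 fold change (median 0.26), and 2 were higher and 1 lower without overlap. By edgeR 0 were called, by DESeq2 1, and 3 had an unadjusted edgeR p under 0.05, 2 higher and 1 lower. Over all 17559 genes, which include genes too low for the filter, 14.7% had an unadjusted edgeR p under 0.05. Among genes that passed the filter, as all these markers did, 14.3% were higher and 11.1% lower without overlap. DESeq2 called 742 of the 13539 genes it tested. None of the markers of these lists was at 0 in all libraries. Their part in the Dcr-1 difference was not tested.

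Levels were compared between the members per kilobase of exon. The order was nearly the same in both groups, with loqs far above the others at 84.1 ± 8.001 CPM per kilobase under overexpression and 88.6 ± 6.10 in the control (SD, n = 3 each). It stood at 7.16 times the next member, r2d2, under overexpression and 8.49 times in the control. Under overexpression r2d2, gw and AGO2 followed, at 11.8, 10.4 and 10.1 CPM per kilobase, and neighbours in this order overlapped between libraries. In the control the order of this trio was r2d2, AGO2 and gw, at 10.4, 8.60 and 6.95, with every library of AGO2 above every library of gw. Dcr-2 (5.32 under overexpression and 4.94 in the control) and pasha (4.72 and 3.74) came next, and AGO1 (2.65 and 2.49) and nbr (2.51 and 1.99) after them, each of these pairs of genes overlapping in at least 1 group. Dcr-1 stood ninth in both groups, but its place changed relative to its neighbours. Under overexpression it had 2.22 ± 0.297 CPM per kilobase, overlapping nbr and 2.58 times drosha, while in the control it had 1.07 ± 0.242, overlapping drosha (1.02 ± 0.156) and below every library of nbr. Among the genes that passed the filter, the mean level of loqs over the 6 libraries lay at percentile 86.3, that of Dcr-1 at 22.8 and that of drosha at 14.2. The exon length is the union over annotated transcripts, which understates the level of genes with unused exons.

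**Figure D3:**
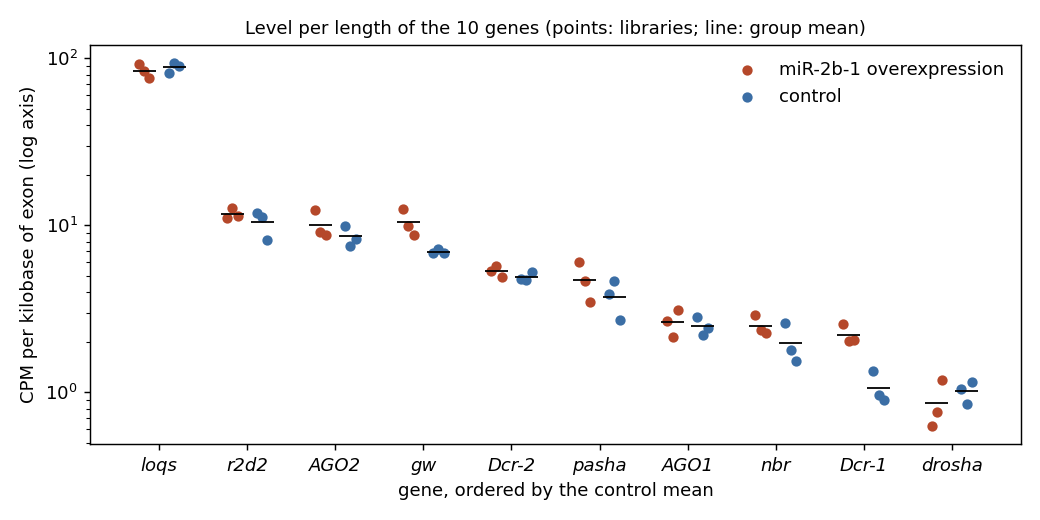
CPM per kilobase of exon (log axis) of the 10 genes, ordered by the control mean, with miR-2b-1 overexpression libraries left of the controls for each gene and a line at each group mean. The gene loqs lies near 84.1 under overexpression and 88.6 in the control, and Dcr-1 at 2.22 under overexpression and 1.07 in the control, where it meets drosha.

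Ratios of counts within a library do not depend on library size or scaling, and 4 such ratios were compared. There were 0.585, 0.434 and 0.505 reads on Dcr-1 per read on Dcr-2 in the overexpression libraries, against 0.341, 0.247 and 0.206 in the controls. All overexpression values were above all control values, a difference of 0.96 on the log2 scale (exact permutation p = 0.1, two-sided, 3 samples a group, 0.2 after Benjamini-Hochberg adjustment over the 4 ratios). With 3 samples a group 0.1 is the smallest p this test can give, so no ratio could pass 0.05. The ratio of Dcr-1 to its partner loqs was likewise higher in every overexpression library, 0.0837, 0.0737 and 0.0810 against 0.0494, 0.0308 and 0.0302 in the controls, a log2 difference of 1.15 (exact p = 0.1, adjusted 0.2). Dcr-1 enters both of these ratios, and the log2 fold changes of Dcr-2 (0.11) and loqs (-0.08) were small. Both ratios therefore restate the Dcr-1 difference and are not separate results. The other ratios overlapped between groups. That of AGO1 to AGO2 was 0.432, 0.468 and 0.707 under overexpression and 0.564, 0.586 and 0.585 in the control (log2 difference -0.15, exact p = 0.6). That of Dcr-2 to r2d2 was 1.45, 1.35 and 1.31 under overexpression and 1.22, 1.27 and 1.97 in the control (log2 difference -0.08, exact p = 1), and control library 3 set its sign.

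**Figure D4:**
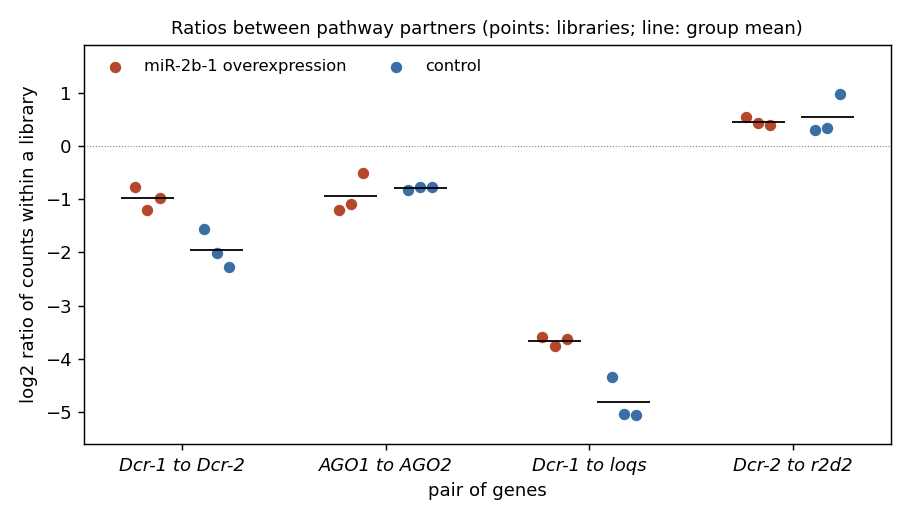
Log2 ratio of counts (vertical axis) for 4 pairs of genes within each library, miR-2b-1 overexpression left of control, with a line at each group mean. The ratios of Dcr-1 to Dcr-2 (means -0.99 and -1.95) and of Dcr-1 to loqs (means -3.66 and -4.80) are apart between the groups, and the other pairs overlap.

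Other genes that act at steps around the 10 members were read in the same fit. Of 6 genes for nuclear steps and export of microRNAs, 2 were called, both higher, where 1.29% of all genes tested were called higher. The list median was 0.33, against 0.01 among genes that passed the filter, as all 6 did. Cbp20, the small subunit of the nuclear cap-binding complex (FBgn0022943, chromosome 3R), had 84.6, 92.2 and 74.6 CPM under overexpression and 60.0, 57.8 and 47.3 CPM in the control, with no overlap. The fitted log2 difference was 0.61 (SE 0.149) with an edgeR adjusted p of 0.0342, and the adjusted p was above 0.05 in 5 of the 6 fits that left out a library, at 0.0539 to 0.192, and 0.00701 without overexpression replicate 3. The DEAD-box helicase gene Rm62 was also higher, by 0.53 on the log2 scale (SE 0.137) with an edgeR adjusted p of 0.0437, and had 108 to 128 CPM under overexpression and 75.9 to 88.0 CPM in the control. Its adjusted p was 0.0382 without overexpression replicate 3 and 0.0684 to 0.290 without any other library. Over all 17 other fits Rm62 was called in 5 and Cbp20 in 8, and with upper-quartile factors neither was (0.122 and 0.0670). Ranbp21, the exportin-5 of the fly, did not pass (log2 fold change 0.39, edgeR adjusted p = 0.379).

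By edgeR with all samples, the lists downstream of the Dicers held no called gene, and DESeq2 called 2. Over all 17559 genes, 14.7% had an unadjusted edgeR p under 0.05, a share that includes genes too low for the filter. DESeq2 called 742 of the 13539 genes it tested. Of 15 genes for the loading of Argonaute and its associated factors, 0 were called by edgeR and 0 by DESeq2, while 7 had an unadjusted p under 0.05, 6 of them higher. The lowest p were those of Fmr1, a translational repressor found with Argonaute complexes (164 CPM under overexpression and 119 CPM in the control, adjusted p = 0.125), and Tudor-SN, a nuclease of the complex (117 and 86.5 CPM, adjusted p = 0.192). Of 7 genes for tailing and decay of microRNAs, 0 were called by edgeR and 0 by DESeq2, with 1 at an unadjusted p under 0.05. That gene was Dora, a ubiquitin ligase component in the target-directed decay of microRNAs, with 30.2 CPM under overexpression and 20.5 CPM in the control (adjusted p = 0.118), and next to it came wisp, a poly(A) polymerase, with an adjusted p of 0.466. Of 18 deadenylation and decapping genes, 0 were called by edgeR, 2 by DESeq2 and 2 at an unadjusted p under 0.05. Their fold changes had opposite signs. Not11, a subunit of the CCR4-NOT deadenylase, had 10.1, 8.70 and 10.4 CPM under overexpression and 14.4, 16.9 and 14.6 CPM in the control, without overlap (log2 fold change -0.65, edgeR adjusted p = 0.0506). Its adjusted p was 0.0160 to 0.0463 in 8 of 17 other fits, DESeq2 (0.0162) among them, and 0.0659 to 0.292 in the other 9. HPat, a decapping activator, had a log2 fold change of 0.82 (edgeR adjusted p = 0.187), with DESeq2 (0.0397) among the 4 of 17 other fits that called it.

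The neighbouring small RNA pathway (1 of 26 genes) and the hairpin substrates of Dicer-2 (1 of 3) each held a called gene, where 2.81% of all genes tested were called. Each count stands on a single gene. In a list of 26 piRNA pathway genes the median log2 fold change was 0.27. DESeq2 called 3 of them, where it called 742 of the 13539 genes it tested. An unadjusted edgeR p under 0.05 was found for 7, 6 of them higher, against 14.7% of all 17559 genes. That share includes genes too low for the filter, which all 26 passed, so it is not a like comparison. By edgeR 1 of the 26 was called, where 2.81% of all genes tested were. It was spn-E, a helicase of the nuage, with 19.3, 15.2 and 12.7 CPM under overexpression and 9.01, 9.41 and 8.94 CPM in the control (log2 fold change 0.79, edgeR adjusted p = 0.0274, and 0.0587 to 0.205 without any library other than overexpression replicate 3, without which it was 0.00453). Of the 3 annotated hairpin RNAs in the files, precursors from which Dicer-2 makes siRNAs, hpRNA:CR32205 (FBgn0052205, chromosome 3L, 19420390 to 19424183) was called. It had 26.2, 34.7 and 33.2 CPM under overexpression and 15.5, 19.2 and 16.0 CPM in the control, with no overlap. It was higher by 0.89 on the log2 scale (SE 0.172) with an edgeR adjusted p of 0.00622, and the adjusted p was 0.0677 without overexpression replicate 2 and 0.125 in the fit of accessory-gland-poor libraries with its lone control, and it was under 0.05 in the other 15 of 17 fits. Its exons share 330 bases with CR33255 on the opposite strand. The other hairpin RNAs did not pass, hpRNA:CR32207 with 62.0 CPM under overexpression and 62.2 CPM in the control, and hpRNA:CR33940 with 34.6 and 27.8 CPM.

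**Figure D5:**
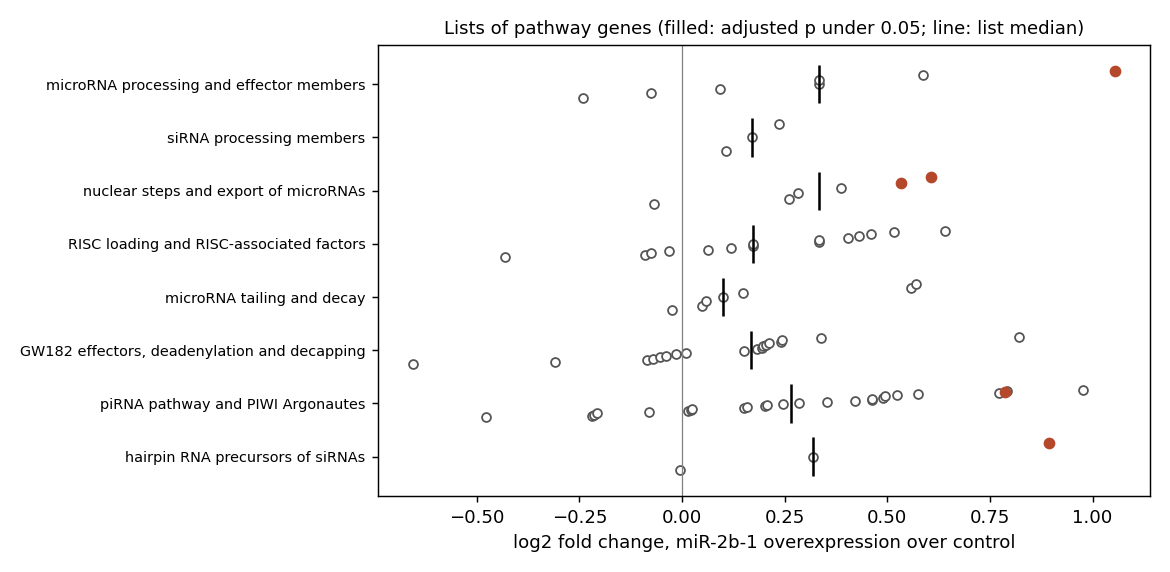
Log2 fold change (horizontal axis, miR-2b-1 overexpression over control) of the genes of each list, a point per gene, filled where the adjusted p is under 0.05, with a line at the list median. The filled points are Dcr-1, Cbp20, Rm62, spn-E and hpRNA:CR32205, at 1.06, 0.61, 0.53, 0.79 and 0.89.

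The genes whose log2 CPM followed Dcr-1 most closely over the 6 libraries were Sec6, cocoon, tsu, CG2906 and MED24, with Pearson r from 0.994 to 0.997. Of these only Sec6, a subunit of the exocyst, was itself called (15.9 CPM under overexpression and 8.06 CPM in the control, log2 fold change 0.98, edgeR adjusted p = 0.00568). Of 12440 genes compared, 179 had an r above 0.95 with Dcr-1. Among the members, gw was the closest to Dcr-1 (r = 0.89), followed by nbr (0.84) and AGO2 (0.74), while loqs (-0.37) and drosha (-0.50) ran against it. These correlations are a description over libraries that share the group difference, depth and tissue makeup.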

How the data were processed

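The authors deposited raw counts per gene for each sample, made with cutadapt for trimming, STAR for alignment and featureCounts with an Ensembl annotation of the fly genome. A deposited table of their own edgeR comparison was not used, nor were 6 columns of normalized values whose names match no sample label. Rows that name no gene numbered 0. Whole-table tests used edgeR 4.0.16 in R 4.3.3 (TMM, quasi-likelihood test with a robust prior and the older method, group as the only term, no filter, Benjamini-Hochberg adjustment over 17559 genes, threshold 0.05). The standard error is the log2 fold change divided by the square root of F, and 95% intervals use the moderated degrees of freedom. The filter on low counts was filterByExpr. The test was tested on simulated data. Alternatives were RLE and upper-quartile factors, the tool DESeq2 1.42.0, filtering by filterByExpr or by a minimum of 10 counts, edgeR's newer method, a non-robust prior, a block for replicate number, an accessory gland covariate, each replicate left out, and a threshold of 0.01. Fits without scaling factors and with accessory-gland-poor libraries alone were added after seeing the data. Symbols, exon lengths and coordinates came from Ensembl release 115 (BDGP6), with 17253 of 17559 genes matched, and 3 listed genes (vas, Ge-1, wupA) were not used here. The members and lists were chosen with earlier results of these data known. From each other list the text names called genes, at most 4 a direction, or otherwise the 2 with the lowest p. The replicates are separate pools of testes, and nothing says that their crosses were separate, so p-values measure the spread between these samples.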

Additional observations from a re-analysis of the deposited data

How the results depend on the processing

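Of 170 refitted log2 fold changes of the 10 members, 161 kept direction and side of the threshold, 3 lost the call (all Dcr-1), 4 gained it (all gw) and 2 changed sign (loqs at 0.038 without scaling factors, AGO1 at -0.041 without overexpression replicate 3, within a range of -0.041 to 0.23 with each replicate left out). The adjusted p of Dcr-1 was 0.0519 with a prior that is not robust and lay between 0.000241 and 0.0593 over all 17 fits. Members called numbered 1 with all samples, 2 with DESeq2, with the accessory gland covariate and without scaling factors, 0 with the prior that is not robust, and 0 to 2 with each replicate left out. Genes called in the other lists numbered 4 with all samples, 8 with DESeq2, 7 in accessory-gland-poor libraries alone, 1 with the newer quasi-likelihood method, the prior that is not robust or the stricter threshold, and 0 to 9 with each replicate left out, 0 without overexpression replicate 2 and 9 without overexpression replicate 3. Genes called in the whole table numbered 493 with all samples, 742 with DESeq2, 236 with the prior that is not robust, 755 with the covariate, 251 at the stricter threshold, 956 in accessory-gland-poor libraries alone, where the lone control is assumed to vary like the other libraries, and 205 to 923 with each replicate left out. The calls split into 227 higher and 266 lower with TMM, 223 and 414 with upper-quartile factors, and 316 and 191 without scaling factors, which moved the median log2 fold change by 0.11. The cause of these differences was not tested. The log2 ratio difference of Dcr-2 to r2d2 was 0.14 without control replicate 3, and with each replicate left out it ranged from -0.20 to 0.14.

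The replicate numbers are shared between groups, and deviations of same-numbered samples correlated at -0.58, 0.30 and 0.54. With 3 samples a group, and accessory gland content that differed within each group, these values cannot decide whether the samples were paired. The fit with a replicate block called 349 genes, with 1 member among them (Dcr-1, log2 fold change 1.07, adjusted p = 0.0131), and 5 in the other lists, where Rm62 (0.0591) and spn-E (0.0635) lost the call and HPat (0.0284) was among those that gained it. The block gave ratio differences of 0.96, -0.15, 1.15 and -0.08 with exact sign-flip p of 0.25, 0.5, 0.25 and 1, where 0.25 is the smallest possible.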

Other observations

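Transcripts of microRNA genes themselves were almost absent from the libraries. Of 235 annotated microRNA genes in the files, 187 had 0 counts in all 6 libraries and 4 passed the filter on low counts, and together they summed to 4.74, 8.61 and 8.61 CPM under overexpression and 8.02, 8.38 and 6.31 CPM in the control. None was called by edgeR. DESeq2 gave no value for 226 of them and called none of the rest. By edgeR 2 had an unadjusted p under 0.05, both with a negative log2 fold change: mir-4985, with 0, 1 and 0 counts under overexpression and 2, 4 and 7 in the control, and mir-283, with 1, 3 and 2 counts under overexpression and 9, 11 and 2 in the control. A change in the output of Drosha and Dicer-1 was not detectable from these counts, since mature microRNAs are as a rule lost from such libraries.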
